A study of Homo sapiens with 18 samples.

Results

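The genes described here are the G1 cyclins, the kinases they activate and the inhibitors of these kinases, 10 genes of the 38055 listed in a whole transcriptome RNAseq table of HCT116 cells. HCT116 is a human colorectal carcinoma line, and the cells were wild-type (WT), with no treatment named. They were grown in McCoy's 5A medium with fetal bovine serum and harvested on day 3 at 50% confluency or on day 5 at 250% confluency, with 3 libraries of whole cell RNA per day. Day 7 values of these genes were not analysed here. A further set of 9 small-RNAseq libraries, from days 3, 5 and 7, is used below for miRNA levels only. The day 7 libraries came from WT cells at a higher confluency than those of day 5. The members were chosen by gene symbol, and the rule uses no measured value: CCND1, CCND2, CCND3, CCNE1, CCNE2, CDK4, CDK6, CDKN1B, CDKN1C and CDKN2B. They were, however, chosen with earlier results of these data known.

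Cyclins are regulatory subunits that switch on cyclin-dependent kinases (CDKs). In G1, D-type cyclins activate CDK4 and CDK6, which begin to phosphorylate the retinoblastoma protein RB, and E-type cyclins with CDK2 complete this step, so that E2F factors are released and DNA replication genes are transcribed. INK4 inhibitors such as the CDKN2B product p15 bind CDK4 and CDK6, whereas CIP/KIP inhibitors such as p27 (CDKN1B) and p57 (CDKN1C) bind cyclin-CDK complexes. Contact between cells and the inhibitory growth factor TGF-beta are classical settings in which p27 and p15 were studied. The products act as proteins, and protein levels were not measured in these libraries.

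On day 5, here called high density, the cells held more RNA of all 3 inhibitor members, of cyclin D1 and of CDK6. They held less RNA of both E-type cyclins and of CDK4. CDKN1C rose the most, by a log2 fold change of 2.35, and CCNE2 fell the most, by 1.50 on the log2 scale. CCND3 did not pass the test, and CCND2 was too low to be tested. Of the 9 members tested, 8 differed between the days (88.9%), with 5 higher and 3 lower at high density (adjusted p under 0.05, limma on log2(value + 1), Benjamini-Hochberg adjustment over all 20129 genes tested). The same threshold was passed by 59.9% of all genes tested, 31.1% higher and 28.7% lower, so that most genes tested were called in this comparison. The ranges of the days were separate for 8 of the 9 members, against 65.0% of all genes tested.

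Values are in the authors' normalized units per gene, and 1 read was worth between 0.618 and 1.42 units in a library. Between 27470978 and 56689369 reads per library were counted on genes, and the deepest and the shallowest library were both from day 3. The 10 most abundant genes took 11.8 to 12.9% of the reads on day 3 and 8.73 to 9.03% on day 5, a difference that moves with the day; its part in the results was not tested. Of the epithelial markers, EPCAM, KRT8, KRT18, KRT19 and CDH1 were detected in all libraries, while the intestinal genes VIL1, CDX1 and CEACAM5 were at or near 0. The 8 epithelial markers summed to 36905 to 54942 units on day 3 and 100051 to 101113 on day 5, with EPCAM at means of 7227 and 7236; the part of this difference in the results was not tested. Of 8 listed markers of other cell types, those of leukocytes (PTPRC, CD3E) and the fibroblast marker DCN averaged under 2 units. Their sum was 648 to 677 on day 3 and 1348 to 1441 on day 5, mostly the fibroblast marker COL1A1 (means 521 and 1129). COL1A1, ACTA2 (64.7 and 149, smooth muscle), DES (51.1 and 74.0, muscle) and VWF (14.1 and 32.1, endothelium) were called higher on day 5 and COL3A1 (10.7 and 16.5, fibroblasts) was not, and the part of these in the results was not tested. Day in culture and density changed together and cannot be told apart, and in bulk RNA neither can fewer cells with a transcript and less of it per cell.

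**Figure D1:**
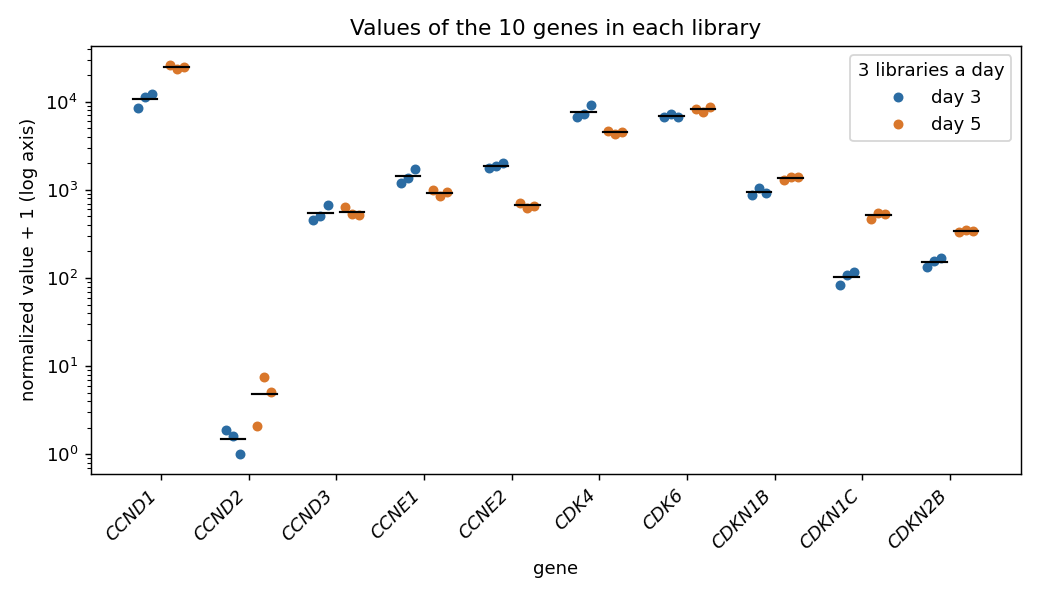
Normalized value + 1 on a log axis for each of the 10 genes, with blue points for the 3 day 3 libraries, orange points for the 3 day 5 libraries and black bars for the means. CCND1 was the highest in normalized value on both days, CCND2 had at most 6 reads in a library, and the days overlapped for CCND3.

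CCND1 encodes cyclin D1, the D-type cyclin whose transcription is best known to follow mitogen signalling. In GRCh38 the gene occupies bases 69641156 to 69654474 of chromosome 11, plus strand. Its normalized value was 8495, 11298 and 12109 in the day 3 libraries and 25852, 23371 and 24870 in those of day 5. The lowest library of day 5 was well above the highest of day 3, and the means differed 2.32-fold. The log2 fold change was 1.23 (standard error 0.11, limma, adjusted p = 2.61e-07), larger than that of 93.5% of the genes tested.

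CCND3, on chromosome 6 from 41934934 to 42050357 on the minus strand, encodes cyclin D3 and was the one tested member that did not pass. The values were 449, 503 and 665 on day 3 and 641, 538 and 512 on day 5, and the days overlapped. The log2 fold change of 0.08 had a 95% interval from -0.21 to 0.36, which spans a change between 0.866-fold and 1.29-fold (limma, adjusted p = 0.636). Without day 3 replicate 3, the highest of the 6, it was 0.24 and passed (limma, adjusted p = 0.0411), and without day 3 replicate 1 or day 5 replicate 1 its sign turned, to -0.044 and -0.019.

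CCND2, which encodes cyclin D2 on chromosome 12 from 4269771 to 4305353, had almost no reads. It had 1, 1 and 0 reads in the day 3 libraries and 1, 6 and 4 in the day 5 libraries, below the filter on low values. Per read counted on genes, the 11 reads of day 5 were 6.98 times the 2 of day 3, with an exact 95% interval from 1.52 to 64.8 that covers counting error alone. When no filter was applied, the difference had an adjusted p of 0.0583 (limma).

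Among the E-type cyclins, CCNE2 fell the more. It encodes cyclin E2, on chromosome 8 from 94879770 to 94896678 on the minus strand. Values of 1766, 1871 and 2000 on day 3 went to 711, 629 and 653 on day 5, with no overlap. The log2 fold change was -1.50 (standard error 0.08, limma, adjusted p = 2.04e-09), which ranked 281 from the bottom of the 20129 genes. CCNE1, encoding cyclin E1 on chromosome 19 from 29811991 to 29824312, went from 1194, 1376 and 1727 to 998, 844 and 941. These ranges did not overlap either, although the lowest day 3 library was close to the highest of day 5. Its log2 fold change was -0.61 (standard error 0.12, limma, adjusted p = 0.000318).

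The kinases that D-type cyclins activate moved in opposite directions. CDK4, on chromosome 12 from 57747727 to 57756013 on the minus strand, stood at 6703, 7282 and 9197 on day 3 and at 4600, 4311 and 4520 on day 5. Every day 5 library was below every day 3 library, and the log2 fold change was -0.77 (standard error 0.10, limma, adjusted p = 8.36e-06). CDK6, on chromosome 7 from 92604921 to 92836573 on the minus strand, had 6731, 7342 and 6736 on day 3 and 8265, 7659 and 8727 on day 5. Its days did not overlap, but the rise was the smallest of the 8 calls, 0.24 on the log2 scale with a 95% interval from 0.08 to 0.41 (limma, adjusted p = 0.0141). The call of CDK6 was lost without day 5 replicate 1 (0.24, limma, adjusted p = 0.0529) and without day 5 replicate 3 (0.20, limma, adjusted p = 0.0766).

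**Figure D2:**
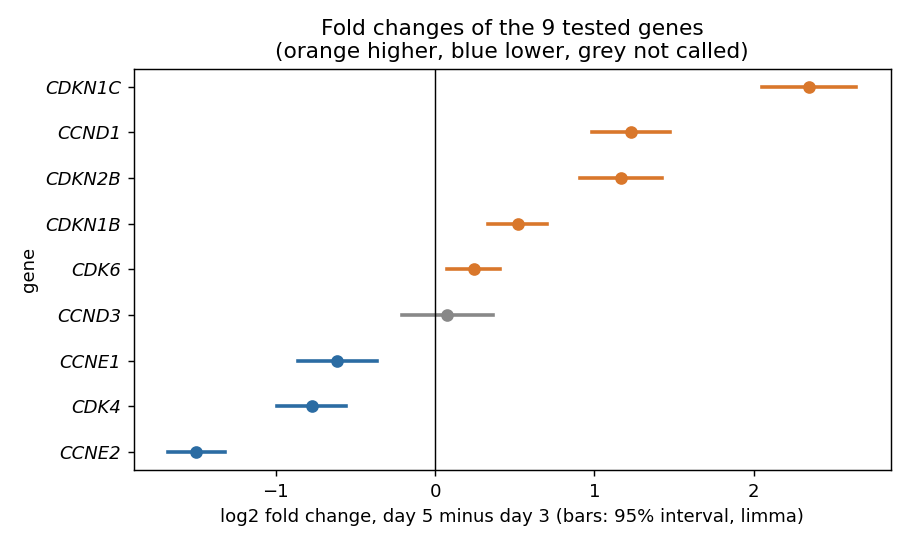
Log2 fold change of day 5 against day 3 for the 9 tested genes, with bars for the 95% interval from limma; orange marks genes called higher, blue genes called lower and grey the gene not called. The 3 inhibitors lie to the right of 0, both E-type cyclins to the left, CDK4 and CDK6 on opposite sides, and the interval of CCND3 spans 0.

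All 3 inhibitor genes rose, to different extents. CDKN1C encodes p57, an inhibitor from an imprinted domain of chromosome 11, where it lies from 2883213 to 2885775 on the minus strand. It was weakly expressed on day 3, at 82.5, 108 and 115, and reached 466, 551 and 535 on day 5. The groups were far apart, with a day 5 mean 5.09 times that of day 3 and a log2 difference of 2.35 (standard error 0.14, limma, adjusted p = 3.48e-09). By log2 fold change it ranked 132 from the top of the 20129 genes.

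CDKN2B, encoding p15 on chromosome 9 from 22002903 to 22009305 on the minus strand, had values of 133, 156 and 167 on day 3 and 328, 354 and 343 on day 5. It rose in all 3 libraries beyond the day 3 range, by 1.17 on the log2 scale (standard error 0.12, limma, adjusted p = 9.18e-07). CDKN1B, encoding p27, lies on chromosome 12 from 12685498 to 12722369. Of the 3 inhibitor members it had the highest value, with 876, 1059 and 930 on day 3 and 1305, 1389 and 1400 on day 5. The groups did not overlap and the day 5 mean was 1.43 times that of day 3 (log2 fold change 0.52, standard error 0.09, limma, adjusted p = 0.0001).

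Levels between genes were compared per length, as RPKM, reads divided by the length of the MANE Select transcript in kilobases and by the library's reads on genes in units of 1000000, which uses library totals and not the authors' scaling. On day 3, CDK4 had the highest level, 115 ± 10.8 RPKM (SD, n = 3 libraries), followed by CCND1 at 69.5 ± 9.21 RPKM. On day 5 the order was turned, with CCND1 at 170 ± 8.64 RPKM (SD, n = 3) and CDK4 at 70.0 ± 2.29 RPKM. The libraries of these genes did not overlap on either day.

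Below this pair on day 3 came CCNE1 at 20.3 ± 2.36 RPKM and CCNE2 at 19.5 ± 0.389 RPKM, which overlapped, then CDK6 at 16.6 ± 1.60, CDKN1B at 11.0 ± 1.35, CCND3 at 7.34 ± 0.983, CDKN1C at 1.59 ± 0.193 and CDKN2B at 1.09 ± 0.0753 RPKM. On day 5 the levels were 20.5 ± 1.11 RPKM for CDK6, 16.5 ± 0.539 for CDKN1B and 13.8 ± 1.15 for CCNE1. CDKN1C at 8.50 ± 0.716, CCND3 at 8.11 ± 1.06 and CCNE2 at 7.25 ± 0.493 RPKM followed, and each of these overlapped the next. CDKN2B, at 2.58 ± 0.104 RPKM, stayed below them. CCND2 was at or under 0.0291 RPKM in every library. The order depends on the transcript length taken. With the union of all annotated exons as the length, the day 3 means of CDK4 and CCND1 were 69.1 and 61.8 RPKM and their libraries overlapped, while on day 5 CCND1 at 151 RPKM stayed apart from CDK4 at 42.2. With that length CDKN1B came to 2.88 RPKM on day 3 and 4.30 on day 5, CCND3 to 2.58 and 2.85, and CCNE2 to 11.9 and 4.41. CCNE2 was then below CDK6 (15.8 RPKM) on day 3, and CDKN1C (6.08 RPKM) was above CDKN1B, CCNE2 and CCND3 on day 5.

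Summed by role over the members alone, the D-type cyclins went from 76.8 ± 9.85 to 178 ± 9.49 RPKM (SD, n = 3 libraries). The 3 inhibitor members went from 13.7 ± 1.48 to 27.6 ± 1.35 RPKM, a sum without CDKN1A and the other inhibitor genes listed below. The sum of CDK4 and CDK6 went from 131 ± 9.53 to 90.5 ± 3.05 RPKM, and that of the E-type cyclins from 39.8 ± 2.27 to 21.1 ± 1.62 RPKM. None of these sums overlapped between the days, but 65.0% of all single genes tested did not overlap either. The share over sums of other genes was not computed. The sums use MANE Select lengths, at which CDKN1B gave 11.0 RPKM of the inhibitor sum on day 3 and 16.5 on day 5. With union exon lengths CDKN1B came to 2.88 and 4.30 RPKM, so the sums depend on the length taken. The D-type cyclin sum was nearly all CCND1, and it was below that of CDK4 and CDK6 on day 3 and above it on day 5.

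**Figure D3:**
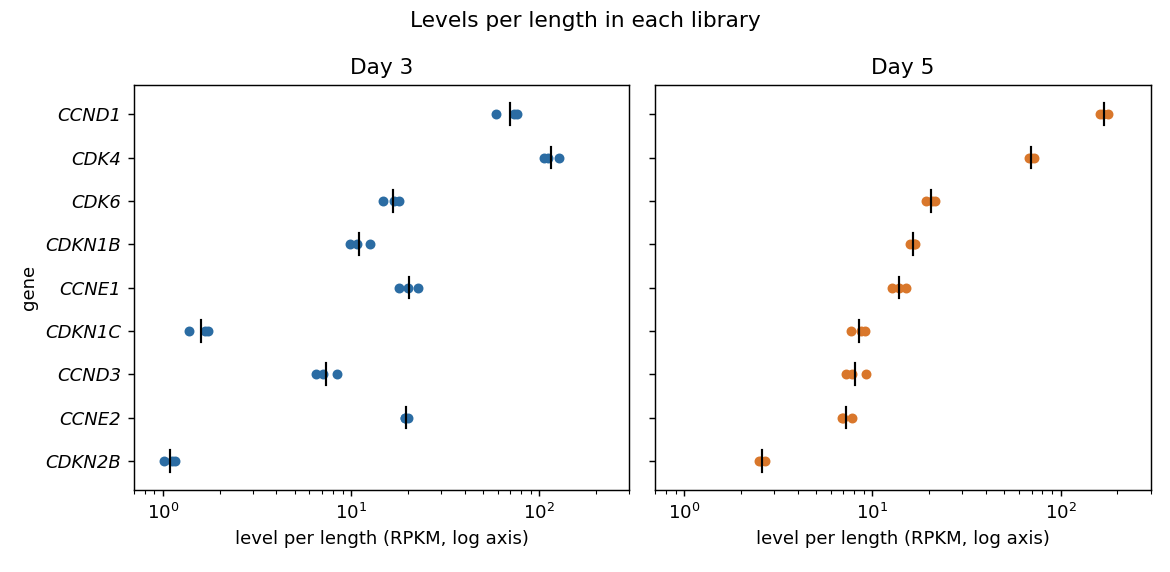
Level per length (RPKM, log axis) of 9 of the genes in each library, day 3 on the left and day 5 on the right, with points for the 3 libraries and black bars for the means; genes are in the order of their day 5 level and CCND2, at or under 0.0291 RPKM, is left out. CDK4 is the highest on day 3 and CCND1 on day 5, and CDKN1C moves from near CDKN2B to the level of CCND3 at these MANE Select lengths, though not with union exon lengths.

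Dividing one gene by another within a library removes the scaling. It does not remove transcript length, so the sign of a ratio tells which gene had more reads, not which had the higher level per length. The log2 ratio of CCND1 to CCND3 was 4.30 ± 0.16 (SD, n = 3 libraries) on day 3 and 5.46 ± 0.14 on day 5, a change of 1.15. For CCNE1 to CCNE2 it went from -0.41 ± 0.18 to 0.48 ± 0.05, so that the E-type cyclin with more reads was CCNE2 in all 3 day 3 libraries and CCNE1 in all 3 day 5 libraries. For CDK4 to CDK6 it went from 0.14 ± 0.26 to -0.87 ± 0.07, a change of -1.02. The ratio of CDKN1B to CDKN1C dropped by 1.83 on the log2 scale, from 3.23 ± 0.20 to 1.40 ± 0.08. That of CDKN1B to CCND1 dropped by 0.71, from -3.46 ± 0.22 to -4.18 ± 0.12, because CCND1 rose by more than CDKN1B. None of the 5 ratios overlapped between the days, but 65.0% of all single genes tested did not overlap either. The share over ratios of other genes was not computed. An exact permutation test, two-sided, gave p = 0.1 for each of the 5 ratios and an adjusted p of 0.1. This is the lower limit of 3 libraries against 3, so the test could not reach the threshold.

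**Figure D4:**
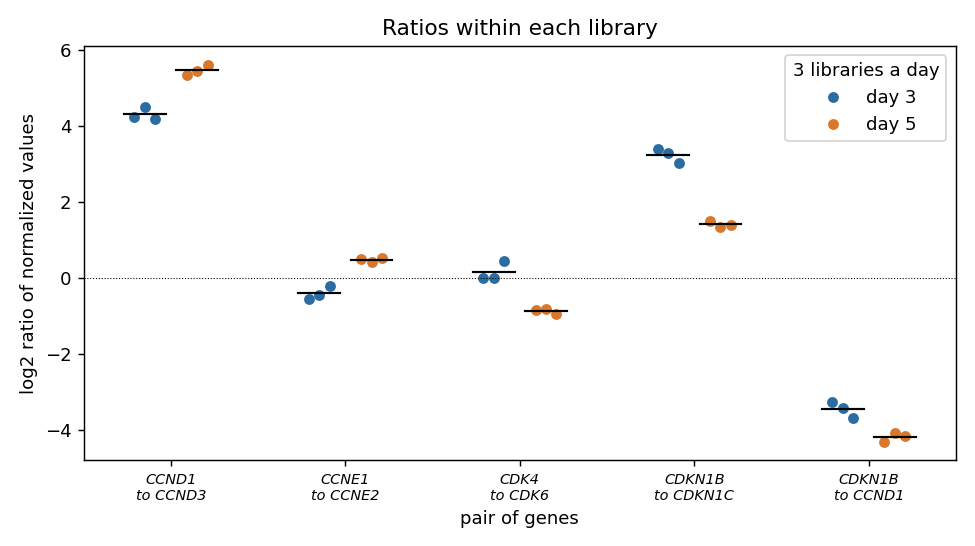
Log2 ratio of normalized values of 5 pairs of genes within each library, with blue points for the 3 day 3 libraries, orange points for the 3 day 5 libraries and black bars for the means. The days do not overlap for any pair, and the ratio of CCNE1 to CCNE2 lies below 0 on day 3 and above 0 on day 5. The ratios are not corrected for transcript length.

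MicroRNAs pair with target RNAs through their seed, bases 2 to 8. The paper proposes that repression by them is relieved at high density. Its candidate targets also had to be bound by the Argonaute protein AGO2 in the 3′UTR, which was not used here. Seed matches alone in the members' 3′UTRs are shown for a pair of families classically linked to G1 genes. The mature sequences from RefSeq have the seed in capitals.
miR-16-5p: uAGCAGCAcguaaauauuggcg
miR-221-3p: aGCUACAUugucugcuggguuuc
A match to the miR-221-3p seed (ATGTAGC, same strand) was found in the 3′UTR of CCND2, CDK6 and all 3 inhibitors, and in 8.21% of the 18780 MANE Select 3′UTRs of GENCODE 44. For the inhibitors each match was followed by an A (an 8-mer match), and CDKN1B held 2 of them. The sites, with the match in capitals, lie at chr12:12721228-12721234 and chr12:12721301-12721307 (plus strand), chr11:2883829-2883835 and chr9:22004947-22004953 (minus strand) of GRCh38.
CDKN1B site 1: aaagcgttggATGTAGCattatgca
CDKN1B site 2: tttaccttttATGTAGCacataaac
CDKN1C site: gggaccgttcATGTAGCagcaaccg
CDKN2B site: cagctcttaaATGTAGCaatggcac
The miR-16-5p seed match (TGCTGCT), present in 21.6% of 3′UTRs, was found in CCND1, CCND2, CCND3, CCNE1 and CDK6 and in none of the inhibitors, CDK4 or CCNE2. Of the tested genes with this match, CCND1 and CCNE1 changed the most, and their sites are shown, at chr11:69653315-69653321 for CCND1 and at chr19:29824024-29824030 and chr19:29824262-29824268 for CCNE1, all on the plus strand.
CCND1 site: tcacattgttTGCTGCTattggagg
CCNE1 site 1: gtgctcccgaTGCTGCTatggaagg
CCNE1 site 2: gttttgtaagTGCTGCTatatctat
CCND1 rose and CCNE1 fell on day 5, so genes with this match moved both ways. Longer 3′UTRs hold more matches by their length alone, and that of CDK6 has 10219 bases against a median of 1088.5. The let-7 match (CTACCTC, in 9.85% of 3′UTRs) was in no member, and that of miR-34a-5p (CACTGCC, 15.7%) was in CCNE2, CDK6, CDKN1B and CDKN1C. A match is a run of letters and was not tested as a site.

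In the small-RNAseq libraries of days 3, 5 and 7, the log2 value of miR-221-3p was 14.36, 14.43 and 14.20 on day 3. It was 14.48, 14.58 and 14.45 on day 5 and 15.02, 15.16 and 15.14 on day 7. The days did not overlap, with differences from day 3 of 0.17 on day 5 and 0.78 on day 7, but as a share of each library's summed miRNA values the day 7 difference was 0.28. miR-222-3p, which shares the seed, was far lower, at 9.42 ± 0.07 (SD, n = 3 libraries), 9.36 ± 0.06 and 10.13 ± 0.08, and overlapped between days 3 and 5, and its day 7 difference of 0.71 was 0.21 as a share. miR-16-5p stood at 15.10 ± 0.20, 15.05 ± 0.08 and 15.34 ± 0.04, and its days 3 and 5 overlapped. Its day 7 difference turned with the scaling, from 0.23 to -0.27 as a share, so no direction is given. These values are given as a description, with no test, and their link to the members was not tested. Confluency was higher on day 7 than on day 5, so day and density changed together in these libraries as well.

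An E2F binding word (TTTCCCGC, TTTCGCGC, TTTGGCGC or TTTGCCGC, either strand) was found in none of the 9 RefSeq promoters of the 6 members in the promoter table, each reaching from 250 bases before to 50 after a start. It was found in 3.31% of all 35116 promoters (GRCh38.p14). With a share that low, finding none among 9 promoters tells little about the members. Only these exact words were searched, and binding or control by E2F was not tested. CCND1, CCND2, CCNE2 and CDKN1C have no entry there.

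Other genes of the G1 to S pathway were described by lists, with the count called in each direction and the median log2 fold change, which was 0.01 over all genes tested. Over all genes tested, 59.9% were called, 31.1% higher and 28.7% lower. The list of CDK2, further inhibitors, RB and E2F factors had 6 of 20 genes higher and 7 lower, with a median of -0.09. At 65%, the share called in this list was near that of all genes. Its largest rises were those of CDKN1A, encoding the CIP/KIP inhibitor p21 (2264 ± 322 to 4290 ± 225, SD, n = 3, log2 fold change 0.93), and of RBL2, encoding the RB relative p130 (0.72). Its largest falls were those of CDC25A, a phosphatase that activates CDK2 (-0.85), and RBL1, encoding p107 (-0.57). Its INK4 inhibitor genes, named for their kind after their values were seen, went both ways, with CDKN2D higher (0.54), CDKN2A lower (-0.27) and CDKN2C not called (-0.12).

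Most genes of the CDK-activating kinase and of G1 protein turnover were lower on day 5, 10 of 14 against 3 higher, with a median of -0.54. The share called was 92.9%, against 59.9% of all genes tested. SKP2, the ubiquitin ligase subunit that marks p27 for breakdown, fell by 1.15 on the log2 scale (3640 ± 279 to 1640 ± 99.9, SD, n = 3, limma, adjusted p = 1.69e-08). CKS1B, its cofactor for p27, fell by 1.05, and CCNH, the cyclin of the CDK-activating kinase, by 1.06. GSK3B, a kinase that phosphorylates cyclin D1 (0.68), and FBXO31, a ubiquitin ligase subunit for cyclin D1 (0.55), rose. CKS1B was added to the largest falls after its values were seen.

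The E2F-driven S phase genes were split, 4 of 16 higher and 9 lower, with a median of -0.27. Their share called was 81.25%, against 59.9% of all genes tested. PCNA, the replication clamp, dropped by 1.37 on the log2 scale and CDC6, which loads the replicative helicase, by 0.88. CDT1, its partner in helicase loading (0.80), and the helicase subunit gene MCM2 (0.61) rose. Of 5 cyclins and CDKs of later phases, CCNB1 (-1.15), CDK1 (-1.06), CCNA2 (-0.85) and CCNB2 (-0.51) were lower and CCNF, a cyclin that is part of a ubiquitin ligase (0.61), was higher, and CCNA1 was not analysed here.

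**Figure D5:**
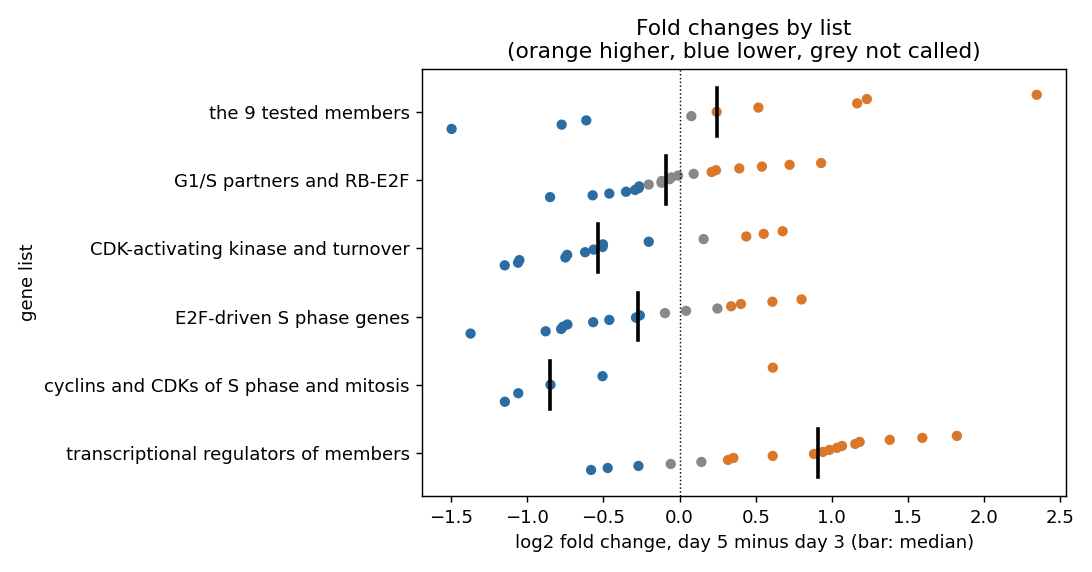
Log2 fold change of day 5 against day 3 for the 9 tested members and for each tested gene of 5 pathway lists, with orange for genes called higher, blue for genes called lower, grey for genes not called and a black bar for the median of each list. The medians run from -0.85 for the S phase and mitosis cyclins and CDKs to 0.91 for the transcriptional regulators.

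Of 18 genes for transcription and chromatin factors that regulate members, 13 were higher on day 5 and 3 lower, with a median of 0.91. Their share called was 88.9%, against 59.9% of all genes tested. FOSL1, an AP-1 factor (1047 ± 231 to 3648 ± 285, SD, n = 3, log2 fold change 1.82), and FOXO3, a forkhead factor that can activate CDKN1B (1243 ± 79.7 to 3756 ± 168, log2 fold change 1.60), rose the most. BMI1 (-0.58) and EZH2 (-0.47), Polycomb genes whose products repress the CDKN2A and CDKN2B locus, were lower, BMI1 with overlapping libraries. MYC, which can repress CDKN2B with the ZBTB17 product MIZ1, was higher as well (1.03), as were ZBTB17 (0.61) and SMAD3 (1.18), a TGF-beta effector. These last 3 were picked after their values were seen.

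Genes beside the members did not all move with them. In the CDKN2B region, the antisense RNA CDKN2B-AS1 (129 ± 26.3 on day 3 and 119 ± 21.0 on day 5, SD, n = 3, log2 fold change -0.11) and MTAP (-0.06) were not called, and CDKN2A was lower (-0.27). Around CDKN1C, SLC22A18 (1.41) and KCNQ1 (1.09) were higher, while KCNQ1OT1, the antisense RNA of that imprinted domain, was not called (5348 ± 669 and 4946 ± 161, log2 fold change -0.11). Beside CDK4, TSPAN31 (0.33) and MARCHF9 (0.96) were higher and TSFM (-0.61) was lower. Near CDKN1B, APOLD1 was higher (1.08) and GPR19 lower (-1.11), and LTO1 next to CCND1 was not called (-0.03). URI1, near CCNE1, was lower (-0.32), and CDK6-AS1 was too low to test, at 7.63 ± 3.93 and 4.58 ± 3.03 units. The authors counted reads on the gene's own strand, so antisense pairs were told apart.

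Over the 6 libraries, the genes with the pattern most like a member's, by Pearson's r of log2(value + 1), were KHSRP and GPC1 for CCND1, THOC5 and CYB561 for CCND3, KPNA2 and BAG1 for CCNE1, and DNAJC9 and NARS1 for CCNE2. For the kinases they were UBE2L3 and GYG1 (CDK4) and C18orf25 and APPL2 (CDK6). For the inhibitors they were NRARP and a gene listed by the identifier ENSG00000172660 (CDKN1B), SERPINE2 and IKZF4 (CDKN1C), and PPARA and SNX27 (CDKN2B). All r were at least 0.995, over points that share their day, 3 libraries each. The log2 fold change was -1.17 for DNAJC9 and 0.93 for SERPINE2, against -1.50 for CCNE2 and 2.35 for CDKN1C.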

How the data were processed

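The authors sequenced rRNA-depleted, strand-specific libraries with UMI adapters, trimmed the reads and mapped them to ENSEMBL v99 genes of hg38 in CLC Genomics Workbench; the submitters' processing notes name bcl2fastq, FastQC 0.11.8 and MultiQC 1.7. In the table deposited by the authors each gene has a normalized signal for every library (they name TMM for their test), and their own fold changes and p-values beside it were not used. Within each library 100% of the signal values were whole multiples of 1 read (within 0.01 read), so reads were recovered. The deposited small RNA table holds log2 values of 2167 mature miRNAs, which the methods describe as TMM-normalized counts from edgeR, with no read counts per library in the table.

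Genes that reached 10 units in 3 or more of the 6 libraries were tested with limma 3.58.1 (trend, R 4.3.3) on log2(value + 1), a scale that understates changes of low genes, with Benjamini-Hochberg adjustment and a threshold of 0.05. edgeR 4.0.16 and DESeq2 1.42.0 were run on the recovered reads, with 12280 and 11131 genes called against 12055 by limma. The fits were tested on simulated data. Other alternatives were library totals, no filter, a pseudocount of 0.1, a replicate block and leaving out each library. Ratios were compared by exact permutation. Libraries are labelled as biological replicates. Loci and transcripts came from GENCODE 44 (GRCh38). The genes named were the members, the 2 largest rises and falls called in each list, all listed neighbours and the 2 genes most like each member. Members and lists were chosen with earlier results of these data known, and the miRNA families, promoter words and sums by role after the values were seen. Python 3.11.15 was used, with scipy 1.17.1, numpy 2.4.6, pandas 2.3.3 and matplotlib 3.10.9.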

Additional observations from a re-analysis of the deposited data

How the results depend on the processing

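CCND1, CCNE1, CCNE2, CDK4, CDKN1B, CDKN1C and CDKN2B kept their direction and their call under all 12 alternatives, with log2 fold changes of 1.08 to 1.33, -0.74 to -0.47, -1.55 to -1.43, -0.87 to -0.64, 0.46 to 0.59, 2.21 to 2.44 and 1.07 to 1.24. Without single libraries, CDK6 ranged from 0.20 to 0.29 and lost its call as described, CCND3 ranged from -0.044 to 0.24 (reversed at -0.044 without day 3 replicate 1 and at -0.019 without day 5 replicate 1), and CCND2 from 1.18 to 2.09. The fold change of CCND2 in log2(value + 1), 1.57, was 2.78 with DESeq2, which has no pseudocount and gave no adjusted p. Members called were 7 without day 5 replicate 1 or 3, 9 without day 3 replicate 3 and 8 otherwise. Library totals moved the median of all genes from 0.01 to 0.08 and the higher share of calls from 52.0% to 56.5%. Same-numbered libraries did not deviate together (r from -0.01 to 0.03 over 20129 genes); with the replicate block 11865 genes and 8 members were called, CDK6 with an adjusted p of 0.0246 (limma), and the exact paired test of the ratios gave p = 0.25, the smallest that 3 pairs allow. As shares of summed miRNA values, an alternative chosen after seeing the data, the day 7 differences from day 3 were -0.27 for miR-16-5p (0.23 as deposited, reversed), 0.28 for miR-221-3p and 0.21 for miR-222-3p (0.78 and 0.71 as deposited). Few reads limit CCND2.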
